A study of Mus musculus with 12 samples.

Results

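The effect of a STING agonist on granulocyte-monocyte progenitors (GMP) of mouse bone marrow was read from 6 of the 12 libraries of the series. They are the 3 libraries labelled GMP STING agonist and the 3 labelled GMP control, taken by their titles and treatment labels, and their raw read counts were compared over all 31042 genes of the deposited GMP table. The treated mice received, per the series' design text, diABZI, a synthetic small-molecule agonist of STING, and the controls are described only as controls. All libraries came from bone marrow of C57BL/6 mice, and the series title places the study in mice that carried melanoma. The other 6 libraries were labelled LSK, a fraction named for lacking lineage markers and carrying Sca-1 and Kit, and are used here only for a test of difference. RNA was amplified by Smart-Seq2, a full-length cDNA method for very small inputs. The extraction protocol calls the inputs single-cell samples without giving a number of cells, and the labels give no dose, time, age or number of mice. Whether each library of a group represents a different animal is not stated. A p-value here therefore speaks only for the scatter among these libraries, and that scatter may be technical.

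STING is a membrane protein of the endoplasmic reticulum that binds cyclic dinucleotides made when DNA appears in the cytosol. It activates the kinase TBK1, which phosphorylates the transcription factor IRF3 and so starts transcription of type I interferon, and it also feeds into NF-κB. Secreted interferon acts on neighbouring cells through the receptor pair IFNAR1 and IFNAR2 and a complex of STAT and IRF factors, which binds interferon-stimulated response elements in promoters. GMP are committed bone marrow progenitors that give rise to neutrophils and monocytes and that make large amounts of primary granule proteins.

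Library totals were 30649314, 36118138 and 38739074 counts in the STING agonist libraries and 35074217, 32005209 and 33833242 counts in the controls. Replicate 1 of the STING agonist group had at least 1 count for 24971 genes, against 18092 to 20870 genes in the other 5 libraries. Mitochondrial genes held 1.24 to 1.96% of counts in STING agonist libraries and 2.13 to 3.52% in controls, and ribosomal RNA genes 0.418 to 0.675% and 0.853 to 2.59%. Both shares separated the groups, and whether they contributed to the results was not tested. The correlation of log2 levels across genes, which are not independent replicates, was 0.939 to 0.943 between STING agonist libraries, 0.889 to 0.898 between controls and 0.898 to 0.920 between the groups. Levels below are in CPM, counts divided by the library size after TMM scaling, which corrects for composition. The labelled cell type was checked against its markers. Mpo, which encodes myeloperoxidase of primary granules, had 21124, 20828 and 25724 CPM in STING agonist libraries, against 19298, 19624 and 19897 CPM in controls. Cd34, a progenitor surface marker used to gate GMP, had 544, 541 and 571 CPM in STING agonist libraries, against 567, 669.6 and 585 CPM in controls. Fcgr3, which encodes the Fc receptor of the same gate, had 354, 285 and 328 CPM in STING agonist libraries, against 334, 284 and 338 CPM in controls. Fcgr2b, a second Fc receptor bound by the same antibody, had 215, 239 and 212 CPM in STING agonist libraries, against 159, 211 and 154 CPM in controls. All of these markers were well expressed in each library. Of 15 GMP marker genes tested none was called, and their median log2 change was 0.02. The members differed, with 8 positive and 7 negative changes that ran from -1.47 (F13a1) to 0.42. The STING agonist libraries stood wholly above the controls at 2 of the 15 and wholly below them at 2, F13a1 and Irf8. Over all tested genes these shares were 8.44% and 8.70%, so 2 of 15 does not stand out. Csf1r and Cebpa, given further below, were also among the negative members.

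Members of lists of interferon-related genes made up 30 of the 58 genes called higher in treated GMP. A smaller set of immediate-early, chemokine and cytokine genes stood beside them. The lists were chosen with earlier results of these data known, so this share depends in part on that choice. Of 15027 genes tested, 64 were called at an edgeR adjusted p below 0.05, which is 0.426% of those tested. Among them 58 were higher after the agonist (0.386%) and 6 were lower (0.0399%). At these shares a short gene list without a call does not stand out from all tested genes. The groups did not overlap at any of the 64 genes. Over all tested genes, the 3 STING agonist libraries stood wholly above the controls at 8.44% and wholly below them at 8.70%. The median log2 change of all tested genes was -0.04, and the unadjusted p was under 0.05 at 646 genes on the higher side and 728 on the lower side. The 30 came from 8 lists: OAS and IFIT, IRG and GBP, ISG15 conjugation, RNA sensing, membrane restriction factors, MHC class I, IRF and STAT factors, and other interferon-stimulated genes. The lists of interferon receptors, JAK and SOCS (14 tested, none called, median -0.05) and of the STING pathway (15 tested, 1 called, median 0.21) were not counted among them. Called genes outside the 8 lists, such as Ly6a, Ifi211 and H2-Q5, were not counted either. The 8 lists held 122 tested genes, of which 111 had a positive log2 change, with a median of 0.99. None of the 122 was called lower.

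The count of calls changed when a library was left out. Without STING agonist replicate 1, 2 or 3 it was 18 in each case, all higher, and without control replicate 1, 2 or 3 it was 45, 76 and 78. All 64 genes kept their sign in each of these 6 fits. In all 6 fits 15 genes were called, each of them higher: Hcar2, Gm4951, Tgtp2, Oasl2, Ifi44, Rtp4, H2-Q7, H2-Q6, Irf7, Serpina3g, Dusp1, Ccl2, Cd14, Ifit1 and Ifi211. The other 49 lost their call without at least 1 STING agonist library, 43 of them without any 1 of the 3. With DESeq2 the count was 339, with 136 of these lower. In what follows, levels are given for replicates 1, 2 and 3 in turn. Changes and differences given with ± are log2 of STING agonist over control with the SE of the edgeR fit, on 3 libraries per group.

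**Figure D1:**
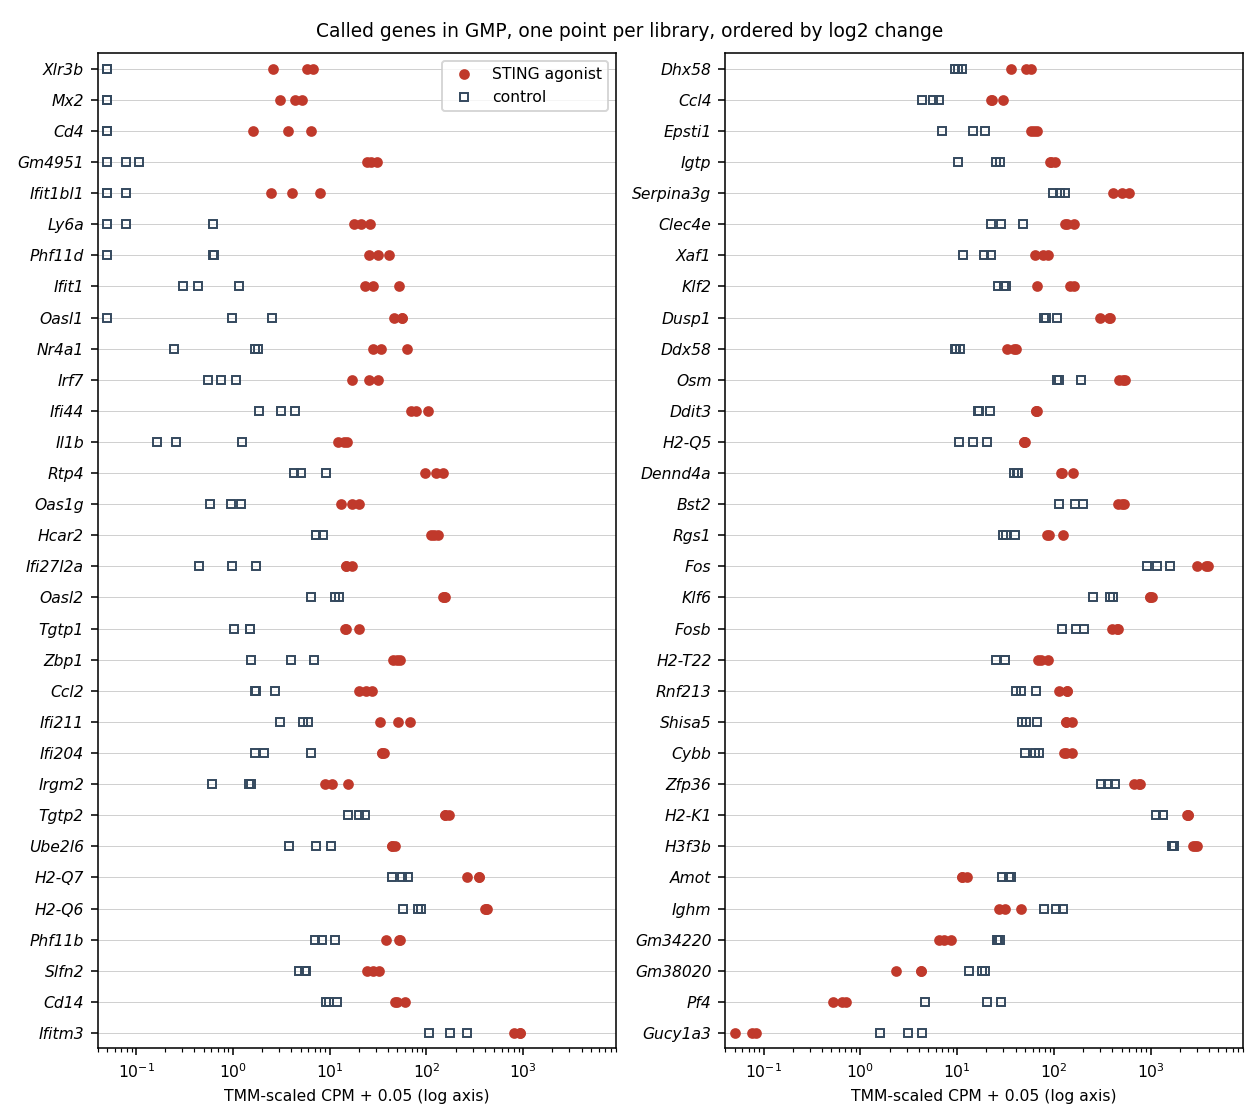
Level of each of the 64 called genes in each of the 6 GMP libraries, in TMM-scaled CPM plus 0.05 on a log axis, ordered by log2 change from the upper left. Filled circles are STING agonist libraries and open squares are controls; the groups are separated at each gene, and the last 6 genes at the lower right, from Amot to Gucy1a3, are those called lower.

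**Figure D2:**
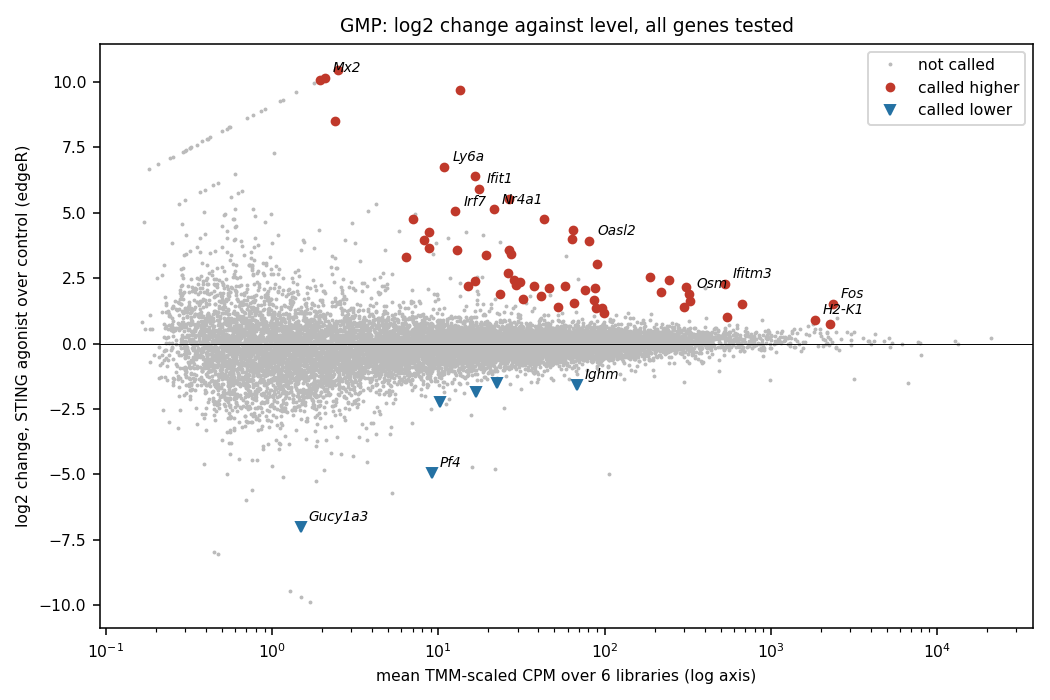
Log2 change (STING agonist over control, edgeR) against the mean TMM-scaled CPM over the 6 GMP libraries on a log axis, for the 15027 genes tested. Filled circles are the 58 genes called higher and triangles the 6 called lower; the straight upper line of points at low levels is formed by genes with 0 counts in controls, whose fitted change depends on a prior count.

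The OAS and IFIT genes encode antiviral effectors: oligoadenylate synthetases make a second messenger that leads to RNA decay, and IFIT proteins bind foreign RNA and block its translation. Of 13 tested members 5 were called higher and none lower, with a median log2 change of 3.87. Ifit1 had 52.4, 23.3 and 28.1 CPM in STING agonist libraries, against 0.254, 0.381 and 1.10 CPM in controls. Its log2 change was 5.89 ± 0.62 (SE, edgeR adjusted p = 0.00388, n = 3 per group). The groups lay far apart at Ifit1, and STING agonist replicate 1 was the highest. Oasl2, which encodes an OAS-like protein, had 155, 150.3 and 149 CPM in STING agonist libraries, against 11.3, 6.39 and 12.6 CPM in controls. Its change was 3.91 ± 0.28 (edgeR adjusted p = 0.000449), with the 3 treated libraries within a narrow range. Oas1g, an oligoadenylate synthetase gene, had 16.9, 12.99 and 19.97 CPM in STING agonist libraries, against 0.536, 0.909 and 1.16 CPM in controls, and rose by 4.25 ± 0.45 on the log2 scale. Oasl1, whose product limits translation of Irf7 mRNA in mouse, had 45.9, 56.1 and 55.4 CPM in STING agonist libraries, against 0.932, 0 and 2.48 CPM in controls (log2 change 5.53 ± 0.95). Ifit1bl1 had 2.41, 7.87 and 4.06 CPM in STING agonist libraries, against 0.0282, 0 and 0 CPM in controls, or 501 counts against 1, a ratio of 501 with a 95% exact interval of 89.5 to 19819 that covers counting error only. Oas1g lost its call without STING agonist replicate 3 (edgeR adjusted p = 0.0594), and Oasl1 and Ifit1bl1 without any 1 STING agonist library (at most 0.293 and 0.214). Oasl1 also lost it without control replicate 1. Oas3 had 28.3, 29.3 and 26.7 CPM in STING agonist libraries, against 1.16, 0.117 and 3.11 CPM in controls (log2 difference 4.26 ± 0.82, edgeR adjusted p = 0.0757), and Oas2 had a difference of 3.87 ± 0.82 (adjusted p = 0.112). Neither passed, although their groups did not overlap. Members of these families have close copies, so reads may be split between them and single values are uncertain.

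Immunity-related GTPases (IRG), guanylate-binding proteins and Mx proteins are interferon-induced GTPases that act against intracellular pathogens and viruses. Of 15 tested members 5 were called higher, all 15 had a positive log2 change, and the median was 2.19. At 14 of the 15 the STING agonist libraries stood wholly above the controls, against 8.44% of all tested genes. Tgtp2, an IRG gene, had 155, 157 and 171 CPM in STING agonist libraries, against 23.2, 15.3 and 20.2 CPM in controls. This was a log2 change of 3.04 ± 0.22 (edgeR adjusted p = 0.000449). Tgtp1, its close neighbour and copy, had 14.8, 14.4 and 20.05 CPM in STING agonist libraries, against 1.44, 1.47 and 0.986 CPM in controls (log2 change 3.66 ± 0.40). Treated and control libraries were well separated at both copies. Igtp had 92.8, 90.0 and 102 CPM in STING agonist libraries, against 10.02, 27.3 and 25.2 CPM in controls, a change of 2.19 ± 0.35, with control replicate 1 the lowest. Irgm2 had 10.4, 8.94 and 15.4 CPM in STING agonist libraries, against 0.565, 1.49 and 1.43 CPM in controls (3.31 ± 0.53). The listed positions of Igtp and Irgm2 overlap on chromosome 11, as those of Tgtp1 and the predicted gene Gm12185 do, so reads from them may not be told apart. Mx2 had 5.16, 4.28 and 3.03 CPM in STING agonist libraries and no count in any control. Its 419 counts against 0 were at least 139.6-fold higher, with a floor of 3 counts over the control group. Mx1 had 13.7, 14.6 and 22.5 CPM in STING agonist libraries, against 0.0847, 4.02 and 0.657 CPM in controls, and did not pass (log2 difference 3.42 ± 0.99, edgeR adjusted p = 0.274). Ifi47, a further IRG gene and the most abundant of the list, had 556, 605 and 461 CPM in STING agonist libraries, against 259, 311 and 249.8 CPM in controls, and likewise did not pass (0.98 ± 0.18, adjusted p = 0.0567). The spread among the controls was wide at Mx1 and narrow at Ifi47. Gbp3 had 198, 179.9 and 228 CPM in STING agonist libraries, against 104, 156 and 79.3 CPM in controls (0.84 ± 0.25, adjusted p = 0.300). Gbp7 had 109, 119 and 138 CPM in STING agonist libraries, against 74.9, 83.6 and 60.5 CPM in controls (0.74 ± 0.20, adjusted p = 0.231). No guanylate-binding protein gene was called. Tgtp1 lost its call without STING agonist replicate 3 (adjusted p = 0.0678). Mx2, Igtp and Irgm2 lost it without any 1 STING agonist library (at most 0.164, 0.223 and 0.311), Igtp and Irgm2 also without control replicate 3, and Irgm2 also without control replicate 1.

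Promoter sequence was set beside these values, since interferon acts on promoters through known elements. RefSeq (GRCm38.p6) gave a window of 300 bases, 250 before to 50 after the annotated start, for 42 of the 58 genes called higher and for 2 of the 6 called lower. Each window was searched on both strands for the letters of 4 motifs. They were the interferon-stimulated response element (ISRE, GAAA, a pair of free bases and GAAA), the interferon-γ activated site (GAS, TTCNNNGAA with N free), the cyclic AMP response element (CRE, TGACGTCA) and an NF-κB site (GGGA, a free base and TTTCC). The ISRE letters were found in 15 of the 42 genes called higher (35.7%) and in 385 of the 9904 tested genes with a window (3.89%). Of all 32851 windows 3.44% held them. A gene counted if any of its windows matched, so shares of genes and shares of windows are not the same measure. GAS letters were in 10 of 42 (23.8%), against 8.25% of tested genes and 8.30% of all windows. CRE letters were in 2 of 42 (4.76%), against 3.58% and 1.79%, and the NF-κB letters in none of 42, against 0.505% and 0.411%. Of the 2 genes called lower that had a window, none held the ISRE and Amot held the GAS. A match is a description of letters and not evidence of binding, and GAS and ISRE matches overlapped in Bst2, Ifitm3 and Shisa5. Tgtp2, Tgtp1, Igtp and Irgm2, counted at both motifs, are copies of one family, and the ISRE count also holds Ifit1 and Ifit1bl1. The genes behind these shares are therefore not all independent examples.

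Printed here are the windows of the 5 called genes with the smallest p that held a match, 5′ to 3′ on the gene's strand. Capitals mark GAS and ISRE letters in Tgtp2 (chr11:49064163-49064462, minus strand), GAS letters in Serpina3g (chr12:104235897-104236196, plus strand) and CRE letters in Dusp1 (chr17:26508423-26508722, minus strand). In Ifit1 (chr19:34640639-34640938, plus strand) they mark a pair of ISRE matches read from the other strand, and in Oas1g (chr5:120887564-120887863, minus strand) a pair of ISRE matches that overlap.
Tgtp2: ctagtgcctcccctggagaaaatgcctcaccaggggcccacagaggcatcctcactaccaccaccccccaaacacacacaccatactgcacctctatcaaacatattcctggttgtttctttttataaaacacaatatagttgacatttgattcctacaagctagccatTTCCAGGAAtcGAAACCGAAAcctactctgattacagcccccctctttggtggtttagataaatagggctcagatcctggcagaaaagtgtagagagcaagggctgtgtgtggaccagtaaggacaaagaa
Serpina3g: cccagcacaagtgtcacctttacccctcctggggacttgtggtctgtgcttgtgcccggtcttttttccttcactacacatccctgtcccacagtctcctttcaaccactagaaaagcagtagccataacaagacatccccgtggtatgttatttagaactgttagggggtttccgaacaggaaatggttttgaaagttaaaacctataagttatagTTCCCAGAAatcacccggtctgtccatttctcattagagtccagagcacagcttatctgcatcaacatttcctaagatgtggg
Dusp1: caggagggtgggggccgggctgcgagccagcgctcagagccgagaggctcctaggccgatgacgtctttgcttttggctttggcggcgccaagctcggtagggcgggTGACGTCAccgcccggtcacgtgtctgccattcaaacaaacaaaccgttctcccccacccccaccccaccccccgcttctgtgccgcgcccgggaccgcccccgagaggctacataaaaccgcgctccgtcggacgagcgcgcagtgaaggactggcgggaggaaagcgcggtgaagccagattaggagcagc
Ifit1: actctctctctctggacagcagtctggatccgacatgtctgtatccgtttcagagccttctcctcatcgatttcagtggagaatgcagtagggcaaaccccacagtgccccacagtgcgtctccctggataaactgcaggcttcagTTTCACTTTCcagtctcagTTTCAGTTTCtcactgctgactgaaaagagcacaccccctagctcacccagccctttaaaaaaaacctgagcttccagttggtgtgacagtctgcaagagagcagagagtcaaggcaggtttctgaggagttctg
Oas1g: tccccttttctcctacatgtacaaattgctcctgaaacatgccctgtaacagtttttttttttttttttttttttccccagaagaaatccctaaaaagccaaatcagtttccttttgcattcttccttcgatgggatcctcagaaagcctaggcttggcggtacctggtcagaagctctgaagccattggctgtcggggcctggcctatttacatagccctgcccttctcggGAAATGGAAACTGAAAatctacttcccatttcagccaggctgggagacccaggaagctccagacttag
Counted from the annotated start, the matches of Ifit1 began at -104 and -85 and those of Oas1g at -18 and -12. The GAS letters of Tgtp2 began at -81 and its ISRE letters at -70, the GAS letters of Serpina3g at -33 and the CRE letters of Dusp1 at -143. The 5 genes rose by 3.04 ± 0.22 (Tgtp2), 2.15 ± 0.20 (Serpina3g), 1.96 ± 0.20 (Dusp1), 5.89 ± 0.62 (Ifit1) and 4.25 ± 0.45 (Oas1g) on the log2 scale.

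A GAS followed by an ISRE that begins 11 bases after it was seen in 4 genes called higher, all IRG genes on chromosome 11, and was picked out after the matches were seen. The stretches of 41 bases are shown because the arrangement is shared letter for letter at most positions. They lie at chr11:49064263-49064303 (Tgtp2, minus strand), chr11:48992304-48992344 (Tgtp1, minus strand), chr11:58199501-58199541 (Igtp, plus strand) and chr11:58214892-58214932 (Irgm2, plus strand). Capitals mark first the GAS and then the ISRE.
Tgtp2: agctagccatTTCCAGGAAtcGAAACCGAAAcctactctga
Tgtp1: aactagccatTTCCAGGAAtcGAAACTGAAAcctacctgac
Igtp: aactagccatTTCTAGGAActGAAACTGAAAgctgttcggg
Irgm2: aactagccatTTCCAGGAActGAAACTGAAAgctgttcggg
Of the 41 bases, Igtp and Irgm2 shared 40, Tgtp2 and Tgtp1 shared 34, and the other pairs 31 or 32. These genes are copies of one family, so they are not independent examples. The arrangement occurred in 5 of 32851 windows, and the fifth belongs to Gm12185, which had 11.96, 7.29 and 7.27 CPM in STING agonist libraries, against 0.198, 0 and 2.03 CPM in controls, and did not pass (log2 difference 3.57 ± 1.22, edgeR adjusted p = 0.407).

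**Figure D3:**
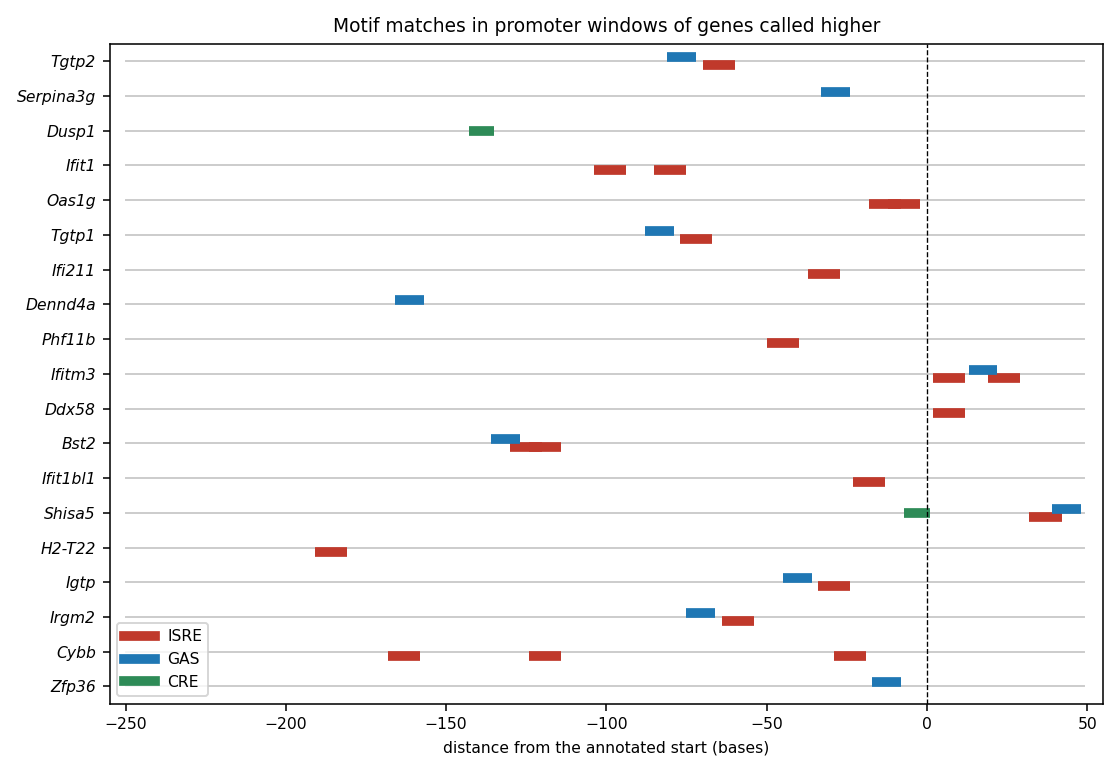
Position of motif matches in the promoter windows of the 19 genes called higher that held at least 1, in bases from the annotated start (dashed line), with genes in order of p. Red bars are ISRE, blue bars GAS and green bars CRE; the GAS and ISRE of Tgtp2, Tgtp1, Igtp and Irgm2 show the same spacing.

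The broad list of other interferon-stimulated genes held 32 tested members, of which 8 were called higher and all 32 had a positive log2 change (median 0.99). Ifi44, an interferon-induced gene of the cytoplasm, had 69.7, 103 and 78.8 CPM in STING agonist libraries, against 4.29, 3.11 and 1.82 CPM in controls. The log2 change was 4.77 ± 0.36 (edgeR adjusted p = 0.000577). Rtp4, which encodes a receptor-transporting chaperone induced by interferon, had 147, 124 and 96.2 CPM in STING agonist libraries, against 4.21, 5.01 and 9.05 CPM in controls (4.33 ± 0.34). Every treated library stood above every control at both genes by a wide margin. Phf11b, a PHD finger gene, had 51.6, 53.6 and 38.4 CPM in STING agonist libraries, against 6.92, 11.4 and 8.24 CPM in controls (2.44 ± 0.29). Phf11d had 31.8, 40.9 and 25.7 CPM in STING agonist libraries, against 0.593, 0 and 0.567 CPM in controls (6.39 ± 0.82). The Phf11 genes are close copies, so their read assignment is uncertain, and Phf11c overlapped between the groups (0.18 ± 0.60). Slfn2, a Schlafen gene that restrains proliferation of immune cells, had 27.7, 24.4 and 32.1 CPM in STING agonist libraries, against 4.72, 5.54 and 5.61 CPM in controls (2.41 ± 0.29). Xaf1, an interferon-induced gene of apoptosis, had 85.7, 76.4 and 63.9 CPM in STING agonist libraries, against 11.3, 19.0 and 22.3 CPM in controls (2.10 ± 0.29). Epsti1 had 67.1, 61.5 and 57.6 CPM in STING agonist libraries, against 6.86, 14.5 and 19.3 CPM in controls (2.19 ± 0.35). Shisa5, a gene of the endoplasmic reticulum that p53 can induce, rose by 1.34 ± 0.20. Lgals9, which encodes galectin-9, and Trim30a were among the abundant members that did not pass. Lgals9 differed by 0.54 ± 0.16 and Trim30a by 0.89 ± 0.22 (edgeR adjusted p = 0.287 and 0.189). Phf11b lost its call without STING agonist replicate 1 or 2 (adjusted p up to 0.0744). Phf11d, Slfn2, Xaf1, Epsti1 and Shisa5 lost it without any 1 STING agonist library (up to 0.0976, 0.0854, 0.104, 0.193 and 0.164), Epsti1 also without control replicate 2 and Shisa5 also without control replicate 1.

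Cytosolic RNA sensors detect viral RNA. Of 11 tested members 3 were called higher and 8 did not pass, with all 11 log2 changes positive and a median of 0.88. Ddx58, the gene of the sensor RIG-I, had 40.3, 38.3 and 32.3 CPM in STING agonist libraries, against 10.7, 9.76 and 9.50 CPM in controls (1.89 ± 0.25, edgeR adjusted p = 0.0136). Dhx58, which encodes the RIG-I relative LGP2, had 36.2, 51.5 and 58.4 CPM in STING agonist libraries, against 11.2, 9.44 and 10.1 CPM in controls (2.25 ± 0.27). Zbp1, a sensor of Z-form nucleic acids that can trigger necroptosis, had 49.2, 52.6 and 45.5 CPM in STING agonist libraries, against 6.78, 1.49 and 3.97 CPM in controls (3.59 ± 0.49). The groups were clear of each other at all 3. Zc3hav1, the zinc finger antiviral protein gene and the most abundant of the list, had 209, 186 and 167 CPM in STING agonist libraries, against 162, 159.8 and 159.7 CPM in controls, and did not pass (0.22 ± 0.17). Ifih1, the gene of MDA5, had 58.9, 78.7 and 68.9 CPM in STING agonist libraries, against 33.4, 40.6 and 38.4 CPM in controls, and did not pass (0.88 ± 0.21, adjusted p = 0.177). Mavs, the adaptor on which RIG-I and MDA5 converge, had overlapping groups (0.17 ± 0.33). Dhx58 lost its call without STING agonist replicate 2 or 3 (adjusted p up to 0.081), and Ddx58 and Zbp1 without any 1 STING agonist library (up to 0.119 and 0.102).

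Among 10 membrane restriction factors 3 were called higher (median log2 change 0.83). Ifitm3, which encodes a membrane protein that blocks entry of enveloped viruses, had 933, 919.9 and 796 CPM in STING agonist libraries, against 173, 107 and 263 CPM in controls (2.28 ± 0.30, edgeR adjusted p = 0.0123). Bst2, the gene of tetherin, which holds budding virus at the cell surface, had 524, 501 and 455 CPM in STING agonist libraries, against 166, 113 and 201 CPM in controls (1.62 ± 0.22). Ifi27l2a had 14.7, 16.8 and 14.6 CPM in STING agonist libraries, against 0.395, 0.938 and 1.67 CPM in controls (3.94 ± 0.55). No library of one group reached the range of the other at these genes, whereas the neighbouring family members Ifitm1 and Ifitm2 overlapped between groups (0.84 ± 0.35 and -0.09 ± 0.47, not passing). Ly6e, an abundant surface protein gene of the same list, had 2335, 2167 and 2254 CPM in STING agonist libraries, against 1411, 983 and 1616 CPM in controls, and did not pass (0.75 ± 0.19, adjusted p = 0.198). Tspo, a mitochondrial membrane protein gene, differed by -0.02 ± 0.49. Ifitm3, Bst2 and Ifi27l2a lost their call without any 1 STING agonist library (adjusted p up to 0.0854, 0.115 and 0.13), and Ifitm3 and Bst2 also without control replicate 1.

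ISG15 is a ubiquitin-like protein attached to other proteins after interferon. Of 6 tested genes of its pathway, Ube2l6, the conjugating enzyme, was called higher, all 6 were positive with separated groups, and the median was 1.98. Over all tested genes, the STING agonist libraries stood wholly above the controls at 8.44%. Ube2l6 had 47.5, 44.2 and 44.2 CPM in STING agonist libraries, against 3.78, 7.21 and 10.2 CPM in controls (2.68 ± 0.36, edgeR adjusted p = 0.015, at most 0.114 without any 1 STING agonist library, where the call was lost). Isg15 itself had 3.48, 4.43 and 7.501 CPM in STING agonist libraries, against 0.311, 0.381 and 0.299 CPM in controls (3.95 ± 0.69), which did not pass (adjusted p = 0.0505). Trim25, an ISG15 ligase gene (0.32 ± 0.18), and Uba7, the activating enzyme gene (0.96 ± 0.36), did not pass. Usp18, which removes ISG15 and dampens interferon signalling, had 31.5, 31.0 and 31.7 CPM in STING agonist libraries, against 1.24, 6.68 and 8.30 CPM in controls (2.54 ± 0.57, adjusted p = 0.152).

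Few genes upstream of this response passed the test. Tmem173, the gene of STING, had 11.995, 14.4 and 38.9 CPM in STING agonist libraries, against 11.7, 13.1 and 34.7 CPM in controls, a log2 difference of 0.14 ± 0.54 that did not pass. Replicate 3 was the highest library within each group at Tmem173. Of 15 tested genes of the STING pathway and DNA clearance, 1 was called, with a median log2 change of 0.21. That gene was Ifi204, a member of the PYHIN family of DNA-binding proteins, with 36.4, 34.4 and 34.5 CPM in STING agonist libraries, against 1.64, 6.42 and 2.03 CPM in controls (3.38 ± 0.51, edgeR adjusted p = 0.0244). It lost its call without any 1 STING agonist library or control replicate 1 or 3 (up to 0.166). The abundant members Ddx41, a proposed DNA sensor, and Mndal, a PYHIN gene, differed by 0.37 ± 0.24 and 0.84 ± 0.22 without passing. Tbk1, the kinase, differed by 0.15 ± 0.24 and Irf3, its target, by -0.17 ± 0.24.

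Of 14 tested IRF and STAT genes, 1 was called (median 0.03). Irf7 (chr7:141262706-141266481, GRCm38), the factor that amplifies type I interferon production, had 25.3, 17.0 and 31.5 CPM in STING agonist libraries, against 0.508, 0.703 and 1.02 CPM in controls (5.05 ± 0.44, edgeR adjusted p = 0.00122). The controls were close to 0 and the treated libraries stood far above them. Irf1 had 111, 129 and 153 CPM in STING agonist libraries, against 57.7, 76.97 and 46.2 CPM in controls (1.119 ± 0.23, adjusted p = 0.109). It did not pass, although the groups did not overlap. Irf8, a factor that steers GMP towards monocytes and dendritic cells, had 326, 325 and 305 CPM in STING agonist libraries, against 652, 932 and 409 CPM in controls, a difference of -1.06 ± 0.26 that did not pass (adjusted p = 0.198). Of 14 tested genes of interferon receptors, JAK kinases and SOCS feedback none was called (median -0.05). Stat3 overlapped between the groups (0.25 ± 0.18), as Ifnar1 did at 33.5, 24.8 and 42.4 CPM in STING agonist libraries, against 33.1, 50.3 and 21.1 CPM in controls. Ifngr1, a receptor chain for interferon-γ, had 1089, 1208 and 1090.4 CPM in STING agonist libraries, against 704, 997 and 686 CPM in controls (0.50 ± 0.18, not passing), and the phosphatase gene Ptpn6 differed by -0.08 ± 0.25. Socs1, a feedback inhibitor, had 5.70, 6.57 and 3.88 CPM in STING agonist libraries, against 1.07, 3.49 and 1.91 CPM in controls (1.32 ± 0.59, adjusted p = 0.545).

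MHC class I molecules present peptides from inside the cell to T cells. Of 21 tested genes of this route 4 were called higher and 17 did not pass. All 21 had a positive change and the median was 0.92. H2-K1, a classical class I heavy chain, had 2443, 2361 and 2392 CPM in STING agonist libraries, against 1332, 1139 and 1344 CPM in controls (0.92 ± 0.14, edgeR adjusted p = 0.0243). H2-Q7 had 347, 349.7 and 264 CPM in STING agonist libraries, against 55.5, 44.4 and 63.9 CPM in controls (2.55 ± 0.21). H2-Q6 had 413, 422 and 398 CPM in STING agonist libraries, against 81.4, 56.9 and 88.2 CPM in controls (2.44 ± 0.20). The groups were separated at each of these non-classical heavy chains, which are close copies of each other with uncertain read assignment. H2-T22 had 72.8, 67.8 and 86.2 CPM in STING agonist libraries, against 31.4, 24.8 and 30.8 CPM in controls (1.38 ± 0.21). H2-Q5, a gene outside the list, had 48.7, 49.5 and 49.04 CPM in STING agonist libraries, against 10.4, 14.6 and 20.4 CPM in controls (1.70 ± 0.28). B2m, the light chain shared by all class I molecules, had 3598, 3119 and 3200.0 CPM in STING agonist libraries, against 1447, 1044 and 2558 CPM in controls (0.97 ± 0.28, adjusted p = 0.274). The controls spread widely at B2m and narrowly at H2-T22. H2-D1, the other classical heavy chain of this strain, had 1060.0, 988 and 1387 CPM in STING agonist libraries, against 515, 524 and 821 CPM in controls (0.89 ± 0.22, adjusted p = 0.204). Tap1, a subunit of the peptide transporter, had 237, 233 and 307 CPM in STING agonist libraries, against 139, 118 and 103 CPM in controls (1.11 ± 0.20, adjusted p = 0.0526). None of B2m, H2-D1 and Tap1 passed, and each had separated groups. H2-K1, H2-T22 and H2-Q5 lost their call without any 1 STING agonist library or control replicate 1 (up to 0.209, 0.178 and 0.253), and H2-Q5 also without control replicate 2. Of 15 tested immune checkpoint and co-stimulation genes none was called (median 0.16). Cd47, the signal that restrains phagocytes, differed by 0.16 ± 0.14 and its receptor gene Sirpa by -0.40 ± 0.24. Cd274, which encodes PD-L1, had 12.8, 19.3 and 16.3 CPM in STING agonist libraries, against 10.1, 11.2 and 16.7 CPM in controls (0.35 ± 0.33, adjusted p = 0.833).

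**Figure D4:**
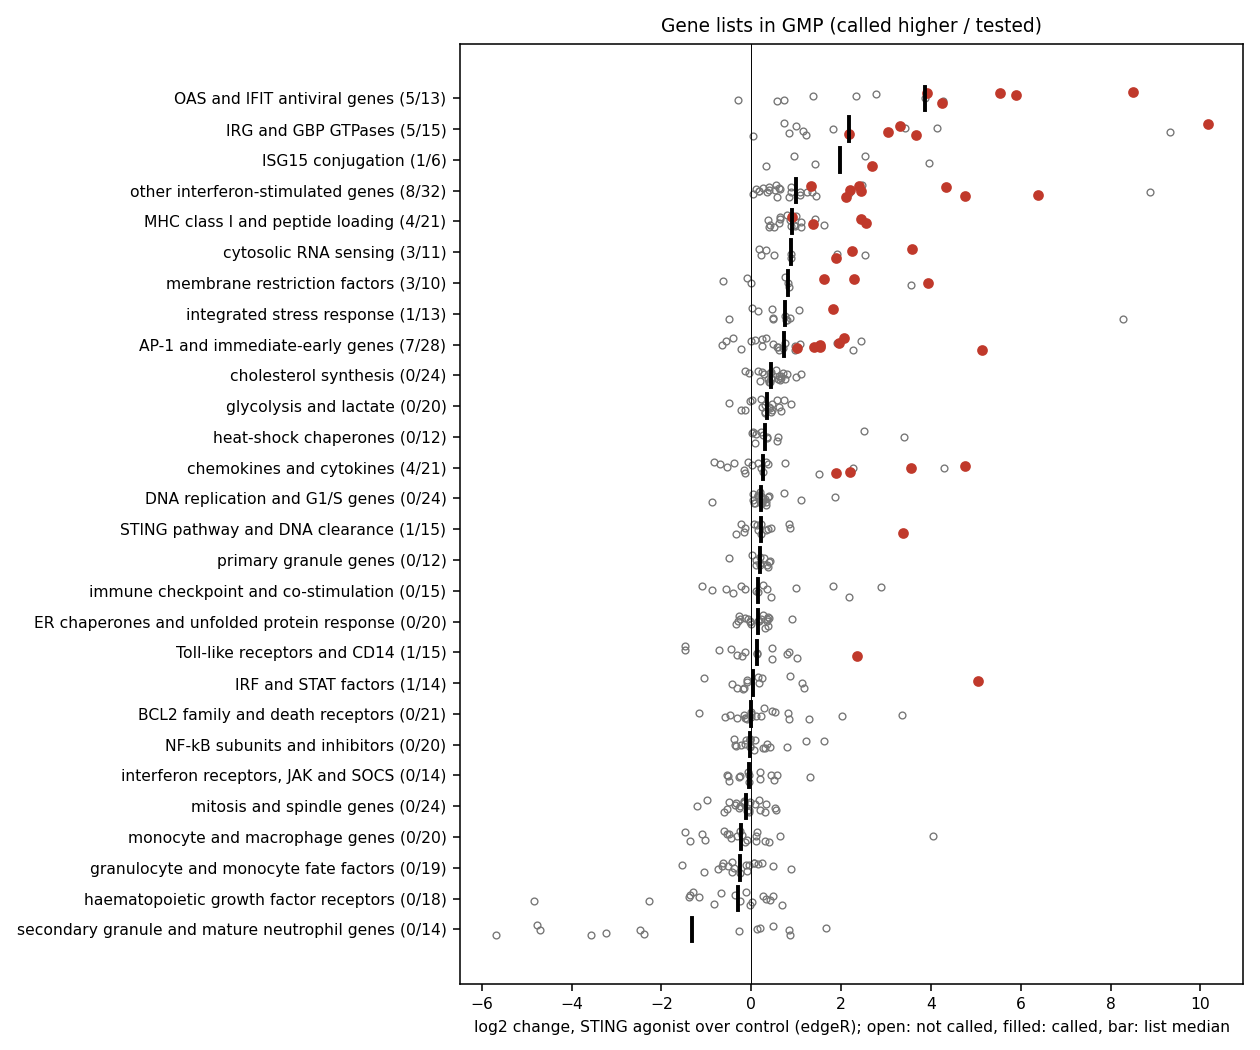
Log2 change (STING agonist over control, edgeR) of every tested member of 28 gene lists in GMP, with the number called higher and the number tested beside each name. Filled circles are called genes, open circles genes that were not called and bars the list medians; the OAS and IFIT, IRG and GBP, and ISG15 lists stand highest, and 15 lists hold no called gene.

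Immediate-early genes, which are transcribed within minutes of a stimulus and encode AP-1 subunits, phosphatases and RNA-decay factors, held 7 called genes, the largest number among the lists outside the interferon ones. Of 28 tested members 7 were higher and none lower by the test, 23 had a positive change and the median was 0.74. Fos, an AP-1 subunit, had 3016, 3675 and 3859 CPM in STING agonist libraries, against 1165, 1587 and 919.7 CPM in controls (1.52 ± 0.21, edgeR adjusted p = 0.0152). Fosb, its relative, had 452, 454 and 394 CPM in STING agonist libraries, against 170.3, 204 and 122 CPM in controls (1.39 ± 0.21). Dusp1, which encodes the phosphatase that switches off p38 and JNK kinases, had 298, 376 and 369.8 CPM in STING agonist libraries, against 82.1, 108 and 78.1 CPM in controls (1.96 ± 0.20, adjusted p = 0.0033). Treated libraries stood above controls throughout. Nr4a1, an orphan nuclear receptor of early activation, had 28.2, 33.9 and 63.5 CPM in STING agonist libraries, against 0.198, 1.76 and 1.64 CPM in controls (5.13 ± 0.70), with STING agonist replicate 3 the highest. Klf6 had 981, 1021 and 975 CPM in STING agonist libraries, against 381, 405 and 252 CPM in controls (1.52 ± 0.20). Klf2 had 146, 159 and 65.9 CPM in STING agonist libraries, against 32.2, 26.3 and 30.3 CPM in controls (2.06 ± 0.32). Replicate 3 was the lowest of the treated libraries at Klf2, yet above every control. Zfp36, whose product tristetraprolin speeds the decay of cytokine mRNA, had 672, 767 and 756 CPM in STING agonist libraries, against 303, 424 and 364 CPM in controls (1.01 ± 0.17). Other members did not pass. Myc, the growth factor-responsive transcription factor, had 1236, 1501 and 1385 CPM in STING agonist libraries, against 974, 1199 and 766 CPM in controls (0.49 ± 0.19). Jun, the partner of Fos, had 433, 422 and 1246 CPM in STING agonist libraries, against 308, 755 and 220.1 CPM in controls (0.71 ± 0.51), with STING agonist replicate 3 far above the rest. Egr1 overlapped between the groups (0.57 ± 0.38), and Ier3 differed by 0.08 ± 0.17. Atf3, a stress-induced repressor, had 96.3, 161 and 95.6 CPM in STING agonist libraries, against 34.9, 21.2 and 8.54 CPM in controls (2.45 ± 0.46, adjusted p = 0.0676). Dusp1 kept its call in all 6 leave-one-out fits. Fos, Fosb, Nr4a1, Klf6 and Zfp36 lost theirs without any 1 STING agonist library (adjusted p up to 0.13, 0.172, 0.133, 0.0976 and 0.313). Klf2 lost it without STING agonist replicate 1 or 2 or any 1 control (up to 0.172), Fos, Fosb and Zfp36 also without control replicate 1, and Zfp36 also without control replicate 3.

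Of 21 tested chemokine and cytokine genes 4 were called higher (median 0.26). Ccl2, the chemokine that draws CCR2-positive monocytes, had 27.3, 20.2 and 23.9 CPM in STING agonist libraries, against 2.68, 1.70 and 1.64 CPM in controls (3.56 ± 0.36, edgeR adjusted p = 0.00339). Osm, which encodes oncostatin M, an interleukin-6 family cytokine, had 469, 514 and 536 CPM in STING agonist libraries, against 114, 191 and 107 CPM in controls (1.88 ± 0.24, adjusted p = 0.0119). Ccl4 had 22.5, 22.5 and 29.4 CPM in STING agonist libraries, against 6.35, 4.25 and 5.55 CPM in controls (2.20 ± 0.31). The treated libraries lay close together at all 3. Il1b, the inflammatory cytokine interleukin-1β, had 12.1, 13.9 and 15.03 CPM in STING agonist libraries, against 0.113, 0.205 and 1.19 CPM in controls (4.76 ± 0.81, adjusted p = 0.0487). Cxcl10, a classical interferon-induced chemokine, had 6.80, 9.66 and 16.7 CPM in STING agonist libraries, against 0.960, 0 and 0.717 CPM in controls, and did not pass (4.30 ± 1.04, adjusted p = 0.186). The abundant Ccl9 overlapped between the groups (0.15 ± 0.19), and Ccl3 had 96.5, 137 and 91.9 CPM in STING agonist libraries, against 65.3, 64.9 and 64.1 CPM in controls without passing (0.74 ± 0.21, adjusted p = 0.247). Tnf overlapped at 6.97, 11.4 and 9.83 CPM in STING agonist libraries, against 11.4, 10.2 and 10.2 CPM in controls, and the type I interferon gene Ifnb1 was under the low-count filter. Ccl4, Osm and Il1b lost their call without any 1 STING agonist library (adjusted p up to 0.165, 0.0904 and 0.301), and Il1b also without control replicate 1 or 2.

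No call was made among 20 tested NF-κB subunits and inhibitors (median -0.02). Nfkbia, the inhibitor that NF-κB itself induces, had 186, 159.7 and 133 CPM in STING agonist libraries, against 210.3, 193 and 216 CPM in controls (-0.37 ± 0.18, edgeR adjusted p = 0.583). Nfkb1 differed by -0.03 ± 0.18. Tnfaip3, the feedback regulator A20, had 54.2, 16.0 and 34.7 CPM in STING agonist libraries, against 9.83, 15.2 and 20.04 CPM in controls (1.22 ± 0.44, adjusted p = 0.44). Of 15 tested Toll-like receptor pathway genes only Cd14 was called. Cd14, the co-receptor for lipopolysaccharide, had 47.8, 49.05 and 59.4 CPM in STING agonist libraries, against 9.18, 9.76 and 11.7 CPM in controls (2.35 ± 0.24, adjusted p = 0.00349). Myd88, the adaptor of most Toll-like receptors, differed by 0.79 ± 0.23 and the chaperone gene Unc93b1 by -0.14 ± 0.21, neither passing. The groups were tight and far apart at Cd14, while Tlr4, the receptor it serves, overlapped between groups at 19.8, 21.7 and 16.2 CPM in STING agonist libraries, against 13.7, 21.4 and 6.57 CPM in controls (0.47 ± 0.41). Ddit3, which encodes the stress factor CHOP, was the called member among 13 tested genes of the integrated stress response (median 0.75). It had 64.3, 64.8 and 66.3 CPM in STING agonist libraries, against 21.9, 16.8 and 16.4 CPM in controls (1.83 ± 0.22, adjusted p = 0.00742, lost without any 1 STING agonist library at up to 0.0798). Atf4, the factor above Ddit3 in that response, had 791, 966 and 699 CPM in STING agonist libraries, against 619, 621 and 508 CPM in controls, and did not pass (0.49 ± 0.18), and Ppp1r15a, its feedback phosphatase subunit, differed by 0.15 ± 0.25.

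A further 12 genes called higher belonged to no list. Hcar2 (chr5:123863570-123865499, GRCm38), a G protein-coupled receptor for nicotinic acid and ketone bodies, had 111, 132 and 119.9 CPM in STING agonist libraries, against 7.14, 8.50 and 7.23 CPM in controls. Its log2 change of 3.98 ± 0.21 had the smallest p of all tested genes (edgeR adjusted p = 0.000114). The 6 libraries were almost uniform within groups at Hcar2. Gm4951, a predicted gene, had 26.5, 30.6 and 24.4 CPM in STING agonist libraries, against 0.0565, 0.0293 and 0 CPM in controls. These were 2790 counts in the treated group against 3, a ratio of 929.6 with a 95% exact interval of 318 to 4510.5 that covers counting error only. Serpina3g, a serine protease inhibitor of haematopoietic cells, had 602, 499 and 408 CPM in STING agonist libraries, against 97.5, 128 and 114 CPM in controls (2.15 ± 0.20). Clec4e, which encodes the pattern receptor Mincle, had 159, 131 and 136 CPM in STING agonist libraries, against 22.1, 47.3 and 28.1 CPM in controls (2.13 ± 0.29). Both genes lay wholly above controls in treated libraries. Cybb, the catalytic subunit of the phagocyte NADPH oxidase, had 132, 152 and 125 CPM in STING agonist libraries, against 69.6, 63.7 and 50.0 CPM in controls (1.16 ± 0.20). Ifi211, a PYHIN gene, had 50.3, 66.8 and 33.3 CPM in STING agonist libraries, against 5.96, 5.22 and 3.05 CPM in controls (3.40 ± 0.37). Both were clear of the controls. Rgs1, a regulator of G protein signalling, had 122, 84.9 and 87.7 CPM in STING agonist libraries, against 39.0, 31.7 and 29.5 CPM in controls (1.56 ± 0.23). H3f3b, a gene of the replacement histone H3, had 2845, 3014 and 2733 CPM in STING agonist libraries, against 1685, 1648 and 1744 CPM in controls (0.76 ± 0.13). Dennd4a, an activator of Rab GTPases, rose by 1.68 ± 0.20 and the ubiquitin ligase gene Rnf213 by 1.35 ± 0.23. Xlr3b had 5.83, 2.55 and 6.65 CPM in STING agonist libraries and no count in controls. Its 519 counts against 0 were at least 173-fold higher, and reads may be shared with its close copies. The last of the 12 was H2-Q5. Dennd4a lost its call without STING agonist replicate 1 (adjusted p = 0.0559), and Clec4e, Xlr3b, Rgs1, Rnf213, H3f3b and Cybb without any 1 STING agonist library (up to 0.099, 0.218, 0.141, 0.24, 0.359 and 0.333). Rgs1 also lost it without control replicate 3, Rnf213 and H3f3b without control replicate 1 or 3, and Cybb without any 1 control.

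The 6 genes called lower included Pf4, the platelet chemokine gene, with 0.469, 0.666 and 0.595 CPM in STING agonist libraries, against 28.3, 20.3 and 4.54 CPM in controls. Its log2 change was -4.93 ± 0.69 (edgeR adjusted p = 0.0163), and control replicate 3 was well below the other controls. Gucy1a3, a subunit of soluble guanylate cyclase, had 0.0335, 0 and 0.0259 CPM in STING agonist libraries, against 4.29, 3.05 and 1.52 CPM in controls. These were 2 counts against 307, 154-fold lower with a 95% exact interval of 42.1 to 1274. Ighm, the immunoglobulin μ chain gene, had 27.2, 31.2 and 45.5 CPM in STING agonist libraries, against 79.3, 104 and 124 CPM in controls (-1.57 ± 0.26). Amot, which encodes the junction protein angiomotin, had 11.2, 12.5 and 11.2 CPM in STING agonist libraries, against 34.4, 36.0 and 29.1 CPM in controls (-1.51 ± 0.25). The remaining genes called lower were the predicted genes Gm34220 (-1.84 ± 0.28) and Gm38020 (-2.25 ± 0.39). None of the 6 was called in all leave-one-out fits. All were lost without any 1 STING agonist library (adjusted p up to 0.178 for Pf4, 0.351 for Gucy1a3, 0.337 for Ighm, 0.281 for Amot, 0.228 for Gm34220 and 0.271 for Gm38020) and without control replicate 1. Gucy1a3, Ighm and Gm38020 were also lost without control replicate 2 or 3, and Amot without control replicate 2. The next lower genes by p did not pass. Mfsd2b, a lipid transporter of erythroid cells, had 1.81, 0.868 and 1.84 CPM in STING agonist libraries, against 18.2, 6.89 and 12.3 CPM in controls (-3.04 ± 0.53, adjusted p = 0.0507). Rgs10, a regulator of G protein signalling, had 15.7, 12.4 and 12.98 CPM in STING agonist libraries, against 45.8, 28.5 and 47.0 CPM in controls (-1.56 ± 0.28, adjusted p = 0.057). Hist1h2ac, Rassf4, Pld4, Bcl2 and Cenpf had log2 differences of -1.79 ± 0.33, -0.996 ± 0.19, -1.32 ± 0.25, -1.16 ± 0.22 and -1.21 ± 0.23, with adjusted p from 0.0673 to 0.0765.

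Markers of other bone marrow cells were read beside these genes. Sums of levels cover every listed marker, also those under the low-count filter, and so hold more genes than were tested. In such bulk libraries, fewer cells of a type and less RNA per cell cannot be told apart. Of 16 tested megakaryocyte and platelet markers 1, Pf4, was called, 15 had a negative log2 change and the median was -1.48. The summed level of the 17 listed markers was 332, 297 and 293 CPM in STING agonist libraries, against 460.0, 422 and 316 CPM in controls. The abundant members Rgs18 and Cd9 differed by -0.36 ± 0.16 and -0.19 ± 0.26. The platelet receptor gene Treml1 was without a count in every STING agonist library, against 5.11, 0.674 and 1.91 CPM in controls, and did not pass (edgeR adjusted p = 0.0967). Of 14 tested erythroid markers none was called (median -1.13). The sums over 19 listed ones, 209, 257 and 242 CPM in STING agonist libraries, overlapped the 231, 273 and 303 CPM of controls. Tfrc, the transferrin receptor gene, differed by 0.17 ± 0.23 and Car2 by -0.36 ± 0.20. Of 13 tested basophil, mast cell and eosinophil markers none was called (median -1.21). The 14 listed ones summed to 974, 805 and 824 CPM in STING agonist libraries, against 1655, 1564 and 619 CPM in controls, so control replicate 3 was the lowest of all. Hdc, which makes histamine, differed by 0.37 ± 0.16 and the mast cell protease gene Cpa3 by -0.57 ± 0.41. Prss34, a basophil protease gene, had 19.9, 0 and 0 CPM in STING agonist libraries, against 139, 474 and 1.91 CPM in controls, a value carried by control replicates 1 and 2. The part of these markers in the results above was not tested.

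Ighm was the called gene among 6 tested B cell markers (median -0.23). The 13 listed markers summed to 132, 129.8 and 127 CPM in STING agonist libraries, against 182, 181 and 217 CPM in controls. Of these sums Ighm alone held 27.2, 31.2 and 45.5 CPM, against 79.3, 104 and 124 CPM. The separation of the sums therefore does not speak for the other members. Cd79b, of the B cell receptor, had 97.2, 95.8 and 77.7 CPM in STING agonist libraries, against 100.5, 72.8 and 86.5 CPM in controls (0.06 ± 0.20). Igll1, of the pre-B cell receptor, differed by -0.01 ± 0.94. The defining B cell gene Pax5 was under the low-count filter, at 14 counts over the 6 libraries. Cd4, the co-receptor of helper T cells that some myeloid and dendritic cells also carry, had 6.43, 1.56 and 3.67 CPM in STING agonist libraries and no count in controls. Its 388 counts against 0 were at least 129-fold higher (edgeR adjusted p = 0.0415, up to 0.282 and not called without any 1 STING agonist library or control replicate 1 or 3). The T and NK cell markers summed to 10.7, 3.44 and 8.74 CPM in STING agonist libraries, against 0.593, 26.0 and 2.21 CPM in controls. These sums rest on few genes, with Cd4 a large part in STING agonist libraries. Gzmb, a list member under the low-count filter, had 6, 0 and 78 counts in STING agonist libraries, against 0, 813 and 0 counts in controls. Lck had 2.18, 1.39 and 2.12 CPM in STING agonist libraries, against 0.424, 1.47 and 1.76 CPM in controls, and Thy1 was below 1 CPM in each library. The defining T cell genes Cd3d and Cd3e had 8 and 5 counts over the 6 libraries. Dendritic cell markers summed to 114 to 118 CPM in STING agonist libraries and 86.1 to 138 CPM in controls, with none of 7 tested genes called, among them Tcf4 (-0.09 ± 0.21) and H2-Ab1 (0.34 ± 0.40).

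Ly6a, which encodes Sca-1 and is known as an interferon-inducible gene, was the called member of 12 tested stem and multipotent progenitor markers, whose median was -0.60. It had 17.9, 20.8 and 26.0 CPM in STING agonist libraries, against 0, 0.0293 and 0.567 CPM in controls (6.75 ± 1.02, edgeR adjusted p = 0.0244, lost without any 1 STING agonist library at up to 0.218). The other stem markers did not pass. Meis1, a stem cell transcription factor, had 23.5, 22.6 and 23.1 CPM in STING agonist libraries, against 45.3, 47.5 and 22.6 CPM in controls. Procr, a stem cell surface receptor gene, had 4.49, 2.40 and 2.90 CPM in STING agonist libraries, against 9.63, 5.22 and 2.75 CPM in controls. Hlf, a further factor of the list, differed by 0.35 ± 0.36 and Adgrl4 by 0.05 ± 0.18. The sum of the stem list was 241, 192 and 221 CPM in STING agonist libraries, against 230.0, 224 and 199.6 CPM in controls. Adgrl4 alone held 149, 112 and 140 CPM of these sums in STING agonist libraries and 136, 128 and 124 CPM in controls. The called gene Ly6a is also part of them, so the sums say little about the other members.

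**Figure D5:**
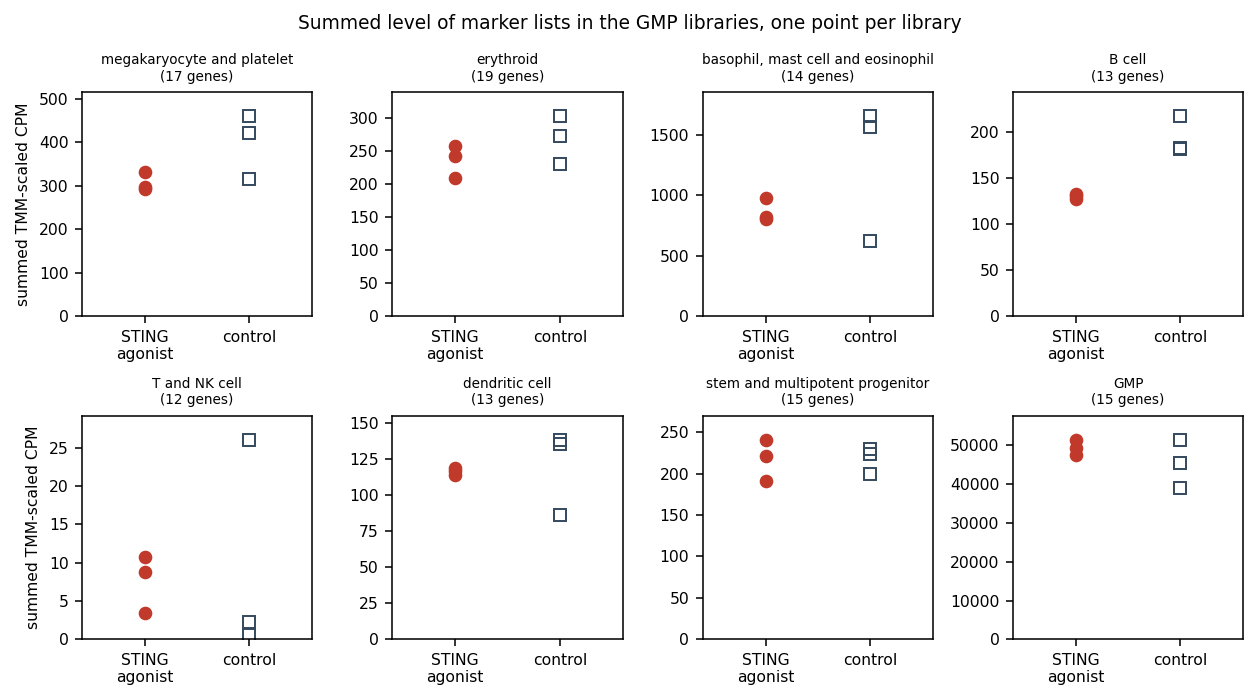
Summed level of 8 marker gene lists in each GMP library, in TMM-scaled CPM on linear axes that start at 0, with STING agonist libraries as filled circles and controls as open squares. The B cell sums, which include the called gene Ighm, are separated between the groups. The megakaryocyte, erythroid, dendritic, stem and GMP sums overlap. Control replicates 1 and 2 lie above the other libraries in the basophil panel. Control replicate 2 does so in the T cell panel, where Gzmb had 813 counts in that library.

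None of 12 tested primary granule genes was called (median 0.20), and Elane, the neutrophil elastase gene, had 14146, 13542 and 12481 CPM in STING agonist libraries, against 13269, 8120.4 and 15748 CPM in controls (0.11 ± 0.21). Of 14 secondary granule and mature neutrophil genes none was called (median -1.33). S100a8, abundant in mature neutrophils, had 5.83, 3.76 and 13.2 CPM in STING agonist libraries, against 15.6, 4.10 and 107 CPM in controls. Ngp, a granule protein gene, had 1.07, 0.723 and 2.77 CPM in STING agonist libraries, against 0.0282, 2.87 and 123 CPM in controls. Control replicate 3 was the highest library at both. Anxa1, the most abundant of the list, had 401, 377 and 468 CPM in STING agonist libraries, against 227, 196 and 263 CPM in controls (0.86 ± 0.18, edgeR adjusted p = 0.107), and Ltb4r1 differed by 0.13 ± 0.34. Of 19 granulocyte and monocyte fate factors none was called (median -0.25). Runx1, a haematopoietic transcription factor, had 169, 174 and 169 CPM in STING agonist libraries, against 247, 306 and 178 CPM in controls (-0.51 ± 0.21). Cebpa, which GMP need to form, had 78.7, 70.6 and 49.6 CPM in STING agonist libraries, against 149, 68.4 and 95.9 CPM in controls (-0.66 ± 0.30). Myb, a progenitor factor, differed by -0.12 ± 0.20. Of 18 growth factor receptors none was called (median -0.31). Csf1r, the monocyte growth factor receptor gene, had 63.2, 67.1 and 90.9 CPM in STING agonist libraries, against 199, 278 and 88.7 CPM in controls (-1.35 ± 0.36, edgeR adjusted p = 0.231). Kit, the stem cell factor receptor gene, had 131, 146 and 160.3 CPM in STING agonist libraries, against 135, 176 and 131 CPM in controls (-0.02 ± 0.19). Control replicate 3 lay within the treated range at Csf1r, and the groups overlapped at Kit, as at Csf2rb (0.01 ± 0.18). None of 20 monocyte and macrophage genes was called (median -0.23). Ly6c2 overlapped between the groups (0.39 ± 0.21). F13a1, a marker of monocyte-committed progenitors, had 156, 133 and 186 CPM in STING agonist libraries, against 362, 678 and 279.9 CPM in controls (-1.47 ± 0.31, adjusted p = 0.112). In the BCL2 and death receptor list of 21 tested genes, with a median of 0.00, none was called. Pmaip1, the gene of the pro-apoptotic protein NOXA, had 100.4, 83.7 and 135 CPM in STING agonist libraries, against 1.81, 14.7 and 14.8 CPM in controls (3.35 ± 0.64, adjusted p = 0.0738). Casp8 and Bid, a death receptor caspase gene and its substrate gene, differed by 0.11 ± 0.18 and -0.08 ± 0.19.

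Whether the agonist acted differently in GMP than in the libraries labelled LSK was tested as an interaction in a joint edgeR fit of all 12 libraries. Ly6a, the gene of the Sca-1 that gives LSK cells part of their name, had 5.71, 6.43 and 9.11 CPM in LSK STING agonist libraries, against 0.746, 0.395 and 0.596 CPM in LSK controls, so this defining marker was near 0 in the libraries labelled LSK control. None of 16857 genes was called (0.0%). The unadjusted p was under 0.05 at 1043 genes with a more positive log2 change in GMP and at 664 with a more negative one. These sides give the sign of GMP minus LSK and not which change was larger in size. DESeq2 called 179 genes, and edgeR 22 without LSK STING agonist replicate 3. Of the 64 genes called in GMP, 20 had an unadjusted interaction p under 0.05, and the smallest adjusted p was 0.374. The 64 were selected by their change in GMP, which is itself part of the interaction, so small p-values are favoured among them. The count of 20 therefore cannot show a difference between the cell types. Over all 16857 genes the matching counts are the 1043 and 664 given above. Of the 58 genes called higher in GMP, 56 had a positive change in LSK libraries in the same fit. The share over all 16857 genes is not given here, so this count stands without a baseline. The genes named next were chosen from the 58 after their values were seen. Oasl1 had 75.8, 102 and 109.6 CPM in LSK STING agonist libraries, against 44.4, 78.7 and 40.9 CPM in LSK controls, and the difference of its log2 change, GMP minus LSK, was 4.78 ± 1.06 (adjusted p = 0.374). Igtp had 394, 422 and 328 CPM in LSK STING agonist libraries, against 26.0, 21.96 and 19.8 CPM in LSK controls, with a difference of -1.83 ± 0.41. Rgs1 had 27.3, 57.5 and 90.0 CPM in LSK STING agonist libraries, against 126, 65.0 and 58.6 CPM in LSK controls, with a difference of 2.12 ± 0.56. The fitted log2 change of Oasl1 and Rgs1 was larger in GMP and that of Igtp larger in LSK libraries, and none of these differences passed the adjusted threshold. Hcar2 had 0.519, 5.09 and 50.8 CPM in LSK STING agonist libraries, against 0, 0 and 0 CPM in LSK controls, and its fitted difference depends on the prior count because the LSK controls were at 0.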

How the data were processed

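For each cell type the authors deposited a table of read counts per gene, whole numbers in one column per library. Beside the counts stand, per the file headers, the authors' base mean (a normalized signal), a fold ratio, a log2 fold change, a p-value and an adjusted p, none of which was used here. The sources used here give no aligner, counter or strand setting, so overlapping genes, and antisense partners too, may share reads. Of the gene identifiers, 99.7% were in GENCODE M21 and 94.8% had the same position there, although mm9 is named in the submitters' processing notes. Positions are therefore given as GRCm38.

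Libraries were grouped by title and treatment label. The 6 GMP libraries entered a quasi-likelihood test (edgeR 4.0.16, R 4.3.3) that used TMM factors, filterByExpr and Benjamini-Hochberg adjustment at 0.05. The interaction used all 12 libraries and the genes in both tables. SE is the size of the log2 change divided by the square root of F. The steps were tested on simulated data. The biological coefficient of variation that edgeR estimated was 54.0% for GMP alone and 80.2% for all libraries. Against 0 counts, folds used a floor of 3 counts over the group. Reads carry no molecular identifiers, so exact 95% intervals and floors cover counting error only. Alternatives were RLE factors, DESeq2 1.42.0, limma 3.58.1 voom, no filter, a stricter filter (1 CPM in 3 libraries), a replicate block, the joint fit and leaving out each library.

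By rule the text names the 15 called genes with the largest rise and 10 lower genes, at 5 CPM or more. Lower genes were taken with called ones first and then those with the smallest p. Called genes also had to have groups without overlap, which all 64 had, and predicted genes and pseudogenes were skipped. Separated groups at these genes are thus part of the rule. Leading and abundant members of each list are named too. Other called genes are named by function. Genes, lists and tests were chosen with earlier results of these data known, and some genes named to show a list's range were chosen after their values were seen.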

Additional observations from a re-analysis of the deposited data

How the results depend on the processing

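The count of 64 genes called in GMP (58 higher, 6 lower) was 339 with DESeq2 (203 and 136), 275 with no low-count filter (159 and 116) and 40 in the joint fit (37 and 3). It was 61 with RLE factors (57 and 4), 59 with limma-voom (56 and 3) and 85 with the stricter filter (75 and 10). Of the 64 genes, 64 were also called by DESeq2, 63 without the filter, 64 with the stricter filter, 49 by limma-voom and 29 in the joint fit. Leaving out 1 library gave 18 to 78 calls, 18 to 71 higher and 0 to 11 lower. With the replicate number as a block 20 genes were called, 20 higher and 0 lower, all among the 64. Same-numbered libraries did not deviate together (correlations of 0.0284, -0.0225 and 0.0231), and the labels do not say that a number marks shared animals or days. The 0 interaction calls of edgeR became 179 with DESeq2, stayed 0 with RLE factors, without the filter and with the block, and ranged from 0 to 22 without 1 library. None of the 64 called genes changed sign under any alternative run. The cause of these shifts was not tested.

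Limits: 3 libraries per group of unstated origin, a wide spread between them and genes with few counts limit the calls. A gene that did not pass is not shown to be the same in both groups. Control replicate 3 stood apart at mature neutrophil genes, and control replicates 1 and 2 at basophil genes.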

Other observations

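Gene groups of metabolism, protein folding and the cell cycle held no called gene in GMP. Of all tested genes 0.426% were called, so lists of this size without a call do not stand out. Of 24 tested cholesterol synthesis genes 22 had a positive log2 difference, with a median of 0.44, and at 14 of them the STING agonist libraries stood wholly above the controls, against 8.44% of all tested genes. Insig1, a feedback regulator of sterol synthesis, had 57.7, 62.0 and 56.4 CPM in STING agonist libraries, against 29.6, 21.5 and 30.7 CPM in controls (1.11 ± 0.22, edgeR adjusted p = 0.0921). It did not pass, nor did the abundant Tmem97 (0.29 ± 0.20) and Srebf2 (0.44 ± 0.18), the sterol-responsive factor. Of 20 glycolysis and lactate genes 16 were positive (median 0.35), and Ldha, lactate dehydrogenase, had 1772, 2116 and 2249 CPM in STING agonist libraries, against 1399.9, 1326 and 1147 CPM in controls (0.66 ± 0.15, adjusted p = 0.173), and the pyruvate kinase gene Pkm differed by 0.57 ± 0.20.

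The 24 DNA replication and G1/S genes had a median log2 difference of 0.23, with 23 positive, and the 24 mitosis and spindle genes a median of -0.13, with 7 positive. Mki67, the proliferation marker Ki-67, had 132, 131 and 127 CPM in STING agonist libraries, against 176, 341 and 261 CPM in controls (-0.996 ± 0.24, edgeR adjusted p = 0.177). Ccne1, cyclin E1 of the G1/S transition, had 71.4, 81.4 and 63.2 CPM in STING agonist libraries, against 24.3, 48.3 and 28.2 CPM in controls (1.10 ± 0.28, adjusted p = 0.21). Both had separated groups and did not pass. In the replication list the STING agonist libraries stood wholly above the controls at 1 gene and wholly below them at 1. In the mitosis list these counts were 0 and 5, and the shares of all tested genes were 8.44% and 8.70%. The abundant members differed by 0.31 ± 0.25 (Mcm6), 0.14 ± 0.23 (Mcm5), 0.19 ± 0.21 (Aurkb) and 0.09 ± 0.22 (Birc5). Of 20 endoplasmic reticulum chaperone genes, where STING resides, none was called (median 0.15), and Hspa5, the chaperone BiP, had 2295, 2440.2 and 2716 CPM in STING agonist libraries, against 1876, 1845 and 1926 CPM in controls (0.40 ± 0.13). Calr and Pdia3 differed by 0.37 ± 0.12 and 0.38 ± 0.14. Heat-shock chaperones had a positive difference at 12 of 12 tested, with a median of 0.30, among them Hsp90aa1 (0.11 ± 0.17) and Hsp90ab1 (0.09 ± 0.15). Hspa8 had 1912, 2256 and 2417 CPM in STING agonist libraries, against 1213, 1812 and 1404 CPM in controls (0.57 ± 0.18, adjusted p = 0.337).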
